A study of Homo sapiens with 8 samples.

Results

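The genes described here are 9 genes of iron storage, import, export and sensing: FTH1, FTL, NCOA4, TFRC, STEAP3, SLC11A2, SLC40A1, ACO1 and IREB2. They were chosen by symbol, as a pathway, from the 62086 gene identifiers of the count table, and all 9 were found. Earlier results of these data were known when they were chosen. BG01 is an established human embryonic stem cell (hESC) line, and all groups were hESCs of this line. They received 5 µg/mL of anti-M8nAb, a neutralising antibody against the secreted protein MFGE-8, for 12 h, or 5 µg/mL of isotype IgG for 12 h, and the same treatments were given for 24 h. Each of the 4 groups has 2 libraries of total RNA, 8 in all, and no group was left untreated. The libraries are named biological replicates, but nothing in the labels says that they came from separate cultures, so a p-value here measures the spread between these libraries, which may be technical.

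Cells take up iron bound to transferrin through the transferrin receptor, encoded by TFRC. In the endosome the reductase STEAP3 turns ferric into ferrous iron, which the transporter SLC11A2 (DMT1) carries into the cytosol. Iron that is not used at once is stored inside ferritin, a shell built of heavy chains (FTH1), which oxidise iron, and light chains (FTL). NCOA4 is the receptor that takes ferritin to the lysosome, where its iron is released, and SLC40A1 (ferroportin) is the exporter of iron from the cell. The iron regulatory proteins IRP1, encoded by ACO1, and IRP2, encoded by IREB2, bind a stem-loop in messenger RNAs, the iron-responsive element, when iron is scarce. Bound before the coding sequence it blocks translation, as in ferritin, and bound after it the messenger is protected from decay, as in TFRC. This control therefore acts on the RNA level of TFRC and on the translation of the ferritin chains, which RNA counts do not measure.

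The stem-loops are shown because they are the sequence through which iron acts on these messengers, and their place before or after the coding sequence bears on translation or decay, as described above. A script searched the untranslated regions (UTRs) of the Ensembl canonical transcripts of GENCODE release 44 on GRCh38, on the transcript strand. The pattern was a C, then 5 bases, then CAGTG and any base but G, then 5 bases that pair with the first 5, with G-T pairs allowed. It was found in 4 of the 9 genes, and in 0.548% of all transcripts in either UTR (0.057% in the 5′ UTR and 0.504% in the 3′ UTR). The pattern is that of the iron-responsive element, which ferritin and TFRC are described above as carrying, so this count is no test. The 6 bases of the loop are in capitals.
FTH1 5′ UTR, exon 1, chr11:61967573-61967602, minus strand: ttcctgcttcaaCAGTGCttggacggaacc
FTL 5′ UTR, exon 1, chr19:48965335-48965364, plus strand: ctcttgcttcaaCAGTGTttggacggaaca
SLC40A1 5′ UTR, exon 1, chr2:189580660-189580689, minus strand: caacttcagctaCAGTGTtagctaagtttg
TFRC 3′ UTR, exon 19, chr3:196050978-196051007, minus strand: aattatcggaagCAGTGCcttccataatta
TFRC 3′ UTR, exon 19, chr3:196050574-196050603, minus strand: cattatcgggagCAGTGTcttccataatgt
TFRC 3′ UTR, exon 19, chr3:196050509-196050538, minus strand: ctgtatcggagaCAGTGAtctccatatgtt
TFRC 3′ UTR, exon 19, chr3:196050462-196050491, minus strand: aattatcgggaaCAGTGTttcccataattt

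The FTH1 and FTL elements were identical at 26 of 30 bases. In TFRC the pattern matched at 4 sites within its 3′ UTR of 2658 bases, and none of its matches lay in the 5′ UTR. These letters were not found in the UTRs of the canonical transcripts of the other 5 genes, NCOA4, STEAP3, SLC11A2, ACO1 and IREB2. This says only that the pattern is not in those UTRs, and other transcripts of these genes were not searched. The search also gave no match in EPAS1, listed below with messengers that have iron-responsive elements. It can therefore miss elements, in these 5 genes and in TFRC as well. A match is a description of the sequence and was not tested for binding.

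Each library held 21010400 to 21792716 counts over genes. All 10 pluripotency markers, including POU5F1, were detected in every group, and their summed level was 8159 to 8277 CPM (counts scaled to a common library size) with anti-M8nAb against 7389 to 7523 CPM with IgG at 12 h, and at 24 h 6815 to 7113 CPM with anti-M8nAb against 6650 to 6674 CPM with IgG. Single markers went the other way at 24 h, among them NANOG, with 90.1 and 89.0 CPM with anti-M8nAb against 108 and 105 CPM with IgG, and SOX2, with 204 and 196 CPM against 224 and 256 CPM with IgG. The 5 neuroectoderm markers, of which NES made up most, summed to 236 to 256 CPM with anti-M8nAb against 211 to 214 CPM with IgG at 12 h, and at 24 h to 273 to 294 CPM with anti-M8nAb against 195 to 201 CPM with IgG. The 5 definitive endoderm markers summed to 5.64 to 6.66 CPM with anti-M8nAb against 2.77 to 3.68 CPM with IgG at 12 h, and at 24 h to 9.59 to 11.9 CPM with anti-M8nAb against 3.74 to 4.35 CPM with IgG, where CER1 was higher with anti-M8nAb (8.28 and 10.6 CPM against 1.02 and 0.969 CPM with IgG) and FOXA2 lower (0.633 and 0.731 CPM against 3.20 and 2.42 CPM with IgG). The 7 erythroid markers, of a lineage that uses much iron, summed to no more than 0.145 CPM in any library, and HBG1 was at 0 in all of them. The part of these marker levels in the results below was not tested. The anti-M8nAb 12 h replicate 2 library stood apart in 1 respect, with 0.542% of its counts in pseudogenes against 0.276 to 0.369% in the other libraries. Levels below are CPM scaled by the trimmed mean of M values (TMM), and fold changes and two-sided p-values come from edgeR's quasi-likelihood test, with Benjamini-Hochberg adjustment over the 20165 genes that passed its filter on low counts. Of the 9 genes, 8 passed that filter, and SLC40A1 did not.

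The ferritin chains had by far the highest levels per length. On the authors' FPKM scale, which divides counts by the length of all annotated exons, the median over the 8 libraries was 487 for FTL and 371 for FTH1, followed by 35.3 for NCOA4, 18.1 for ACO1, 15.6 for TFRC, 13.1 for IREB2, 9.37 for SLC11A2 and 9.36 for STEAP3. The ranges over libraries overlapped between FTL (444 to 542 FPKM) and FTH1 (348 to 463 FPKM) and between ACO1 (17.1 to 18.8 FPKM) and TFRC (11.8 to 17.7 FPKM), but within a library FTL lay above FTH1 and ACO1 above TFRC in 8 of 8. The exons of FTH1 overlap those of BEST1, a gene on the other strand, as described below. Whether the order of FTL and FTH1 depends on how reads of that pair were assigned was not tested. TFRC lay above IREB2 (12.3 to 15.7 FPKM) in 6 of 8 libraries, and SLC11A2 (8.40 to 10.4 FPKM) above STEAP3 (6.37 to 11.7 FPKM) in 4 of 8, so the order of these pairs was not clear of their spread. NCOA4, at 31.3 to 38.6 FPKM, overlapped none of the others.

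The order depended on the length used. The annotated exons of TFRC cover 17376 bases and its canonical transcript 5012, and for FTH1 these are 2004 and 1203 bases. In CPM per kilobase of the canonical transcript, an alternative chosen after the lengths were seen, FTH1 stood first with a median of 617 and a range of 579 to 771, and FTL followed at 487, with 444 to 542. On that scale TFRC came next at 54.2, with a range of 40.8 to 61.2 that overlapped the 36.1 to 44.5 of NCOA4 though TFRC was the higher in 8 of 8 libraries, and ACO1, with 17.3 to 19.1, fell below IREB2 and SLC11A2. Whether the places of FTH1 and FTL on this scale depend on reads shared with BEST1 was not tested either. Under both lengths STEAP3 had the lowest median of the 8 genes tested.

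**Figure D1:**
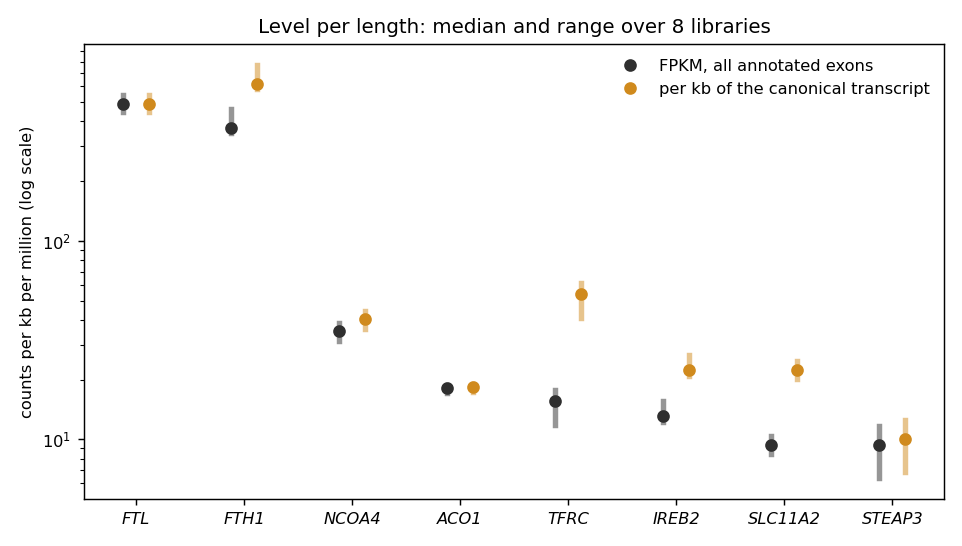
Level per length of the 8 genes that passed the filter, on a log axis in CPM per kilobase, as the median (point) and the range (bar) over 8 libraries, with FPKM over all annotated exons in black and the level per kilobase of the canonical transcript in orange. FTH1 and FTL lie far above the rest under both lengths, and TFRC moves from a median of 15.6 to 54.2.

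FTH1, the heavy chain of ferritin, was higher with anti-M8nAb at both times. At 12 h it had 808 and 767 CPM in the anti-M8nAb libraries, against 697 and 691 CPM in the IgG libraries, and at 24 h it had 887 and 950 CPM with anti-M8nAb, against 713 and 702 CPM with IgG. The groups did not overlap at either time, and the IgG libraries of both times lay within a narrow band. With 2 libraries a group, such separation is a description here and below. How many of all genes showed it was not counted. The increase was 1.13-fold at 12 h (log2 fold change 0.18 ± 0.05, standard error; adjusted p = 0.00153, edgeR) and 1.30-fold at 24 h (log2 fold change 0.38 ± 0.05; adjusted p = 3.14e-09, edgeR). In bulk RNA, a change in the number of cells of some type and a change in RNA per cell cannot be told apart.

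The exons of FTH1 (chr11:61959718-61967634, minus strand) overlap those of BEST1, which encodes an anion channel and lies on the other strand, over 63.2% of their bases. The strand setting of the counting is not given in the sources used here, and the reads of the pair cannot be told apart. BEST1 moved with FTH1, with 678 and 695 CPM with anti-M8nAb against 595 and 563 CPM with IgG at 12 h, and at 24 h with 742 and 830 CPM with anti-M8nAb against 588 and 582 CPM with IgG. The counts assigned to BEST1 were 0.815 to 0.906 times those of FTH1 in every library. How many of them are reads of FTH1 was not tested. With the counts of the pair summed, which was chosen after the BEST1 levels were seen, the pair was higher by 0.21 on the log2 scale at 12 h (adjusted p = 0.00012, edgeR) and by 0.40 at 24 h (adjusted p = 1.48e-10, edgeR).

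FTL, the light chain, was higher at 24 h. At 12 h it had 401 and 425 CPM with anti-M8nAb, against 407 and 425 CPM with IgG, and the groups overlapped. At 24 h it had 482 and 483 CPM with anti-M8nAb, against 406 and 430 CPM with IgG, and the groups were apart. At 12 h the log2 fold change was −0.01 (adjusted p = 0.891, edgeR), with a 95% interval of −0.11 to 0.09, and 0.21 ± 0.05 at 24 h (adjusted p = 0.000511, edgeR), or 15.5% higher. FTL (chr19:48965309-48966879, plus strand) overlaps no other annotated gene in its exons.

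The responses of the ferritin chains were larger at 24 h than at 12 h, by 0.19 on the log2 scale for FTH1 (adjusted p = 0.0369, edgeR) and by 0.22 for FTL (adjusted p = 0.0282, edgeR). These differences were fragile. For FTH1 the call was lost without IgG 12 h replicate 1 or 2, anti-M8nAb 12 h replicate 2, IgG 24 h replicate 1 or 2, or anti-M8nAb 24 h replicate 2, with values of 0.15 to 0.19 (adjusted p = 0.0753 to 0.227, edgeR). For FTL it was lost without IgG 12 h replicate 1 or 2, anti-M8nAb 12 h replicate 1, IgG 24 h replicate 1, or anti-M8nAb 24 h replicate 1 or 2, with values of 0.16 to 0.24 (adjusted p = 0.0567 to 0.249, edgeR).

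The balance of the chains can be compared between libraries by a ratio taken within each, where depth cancels. The different lengths of the genes stay in the ratio, so its size does not say which chain was more abundant. The ratio of FTH1 to FTL counts was 2.01 and 1.80 with anti-M8nAb against 1.71 and 1.62 with IgG at 12 h, and at 24 h 1.84 and 1.97 with anti-M8nAb against 1.76 and 1.63 with IgG. It was higher in both anti-M8nAb libraries than in both IgG libraries at each time. With 2 libraries against 2, an exact permutation test (two-sided) cannot give a p below 0.333, so no test of the ratio was made. Whether BEST1 reads entered the FTH1 counts of this ratio was not tested.

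Ferritin genes have many processed copies in the genome, to which reads of the parent gene can be assigned. The table lists 25 FTH1 pseudogenes and 16 FTL pseudogenes, of which 8 and 4 passed the filter. The FTH1 copies summed to 9.57 and 22.7 CPM with anti-M8nAb against 9.82 and 9.25 CPM with IgG at 12 h, and at 24 h to 11.7 and 10.9 CPM with anti-M8nAb against 8.48 and 9.65 CPM with IgG. The high value belongs to anti-M8nAb 12 h replicate 2, the library with the high pseudogene share, and the copies there held 2.96% as many counts as FTH1, against 1.15 to 1.41% in the other libraries.

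The FTL copies summed to 6.82 and 8.83 CPM with anti-M8nAb against 6.68 and 5.29 CPM with IgG at 12 h, and at 24 h to 5.31 and 7.31 CPM with anti-M8nAb against 5.11 and 5.90 CPM with IgG. Of the 12 copies tested, 3 were called at 12 h, FTH1P20, FTH1P2 and FTLP3, all higher, and 1 at 24 h, FTH1P3, which was lower. FTH1P20 had 1.42 and 6.80 CPM with anti-M8nAb against 1.24 and 1.10 CPM with IgG at 12 h, and FTH1P2 had 1.62 and 4.97 CPM with anti-M8nAb against 1.24 and 1.196 CPM with IgG. The high value of each was again that of anti-M8nAb 12 h replicate 2, and without it the calls were lost, at 0.28 and 0.41 on the log2 scale against 1.81 and 1.43 with it (adjusted p = 0.725 and 0.567 without it, edgeR). The FTLP3 call was lost without that library, IgG 12 h replicate 1 or IgG 12 h replicate 2 (0.63 to 0.85), and the FTH1P3 call in 7 of the 8 leave-outs, all but that of anti-M8nAb 12 h replicate 1 (−3.04 to −1.56). The 3 with the highest mean were FTLP3, FTH1P8 and FTLP14. FTLP3 had 3.73 and 4.39 CPM with anti-M8nAb against 2.58 and 2.25 CPM with IgG at 12 h, FTH1P8 had 2.06 and 4.73 CPM with anti-M8nAb against 2.30 and 1.93 CPM with IgG, and FTLP14 had 1.47 and 3.42 CPM with anti-M8nAb against 2.67 and 1.75 CPM with IgG. With each family summed into its parent gene, the log2 fold change at 12 h and 24 h came to 0.19 and 0.38 for FTH1, and to 0.00 and 0.21 for FTL.

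**Figure D2:**
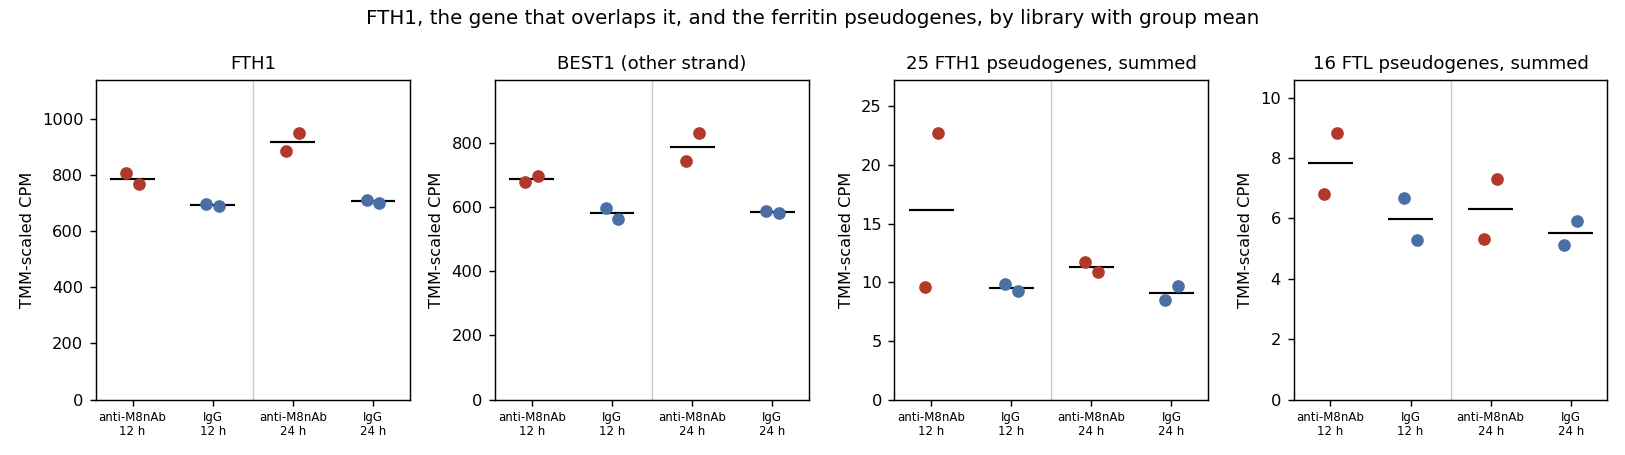
TMM-scaled CPM of FTH1, of BEST1 on the other strand, and of the summed pseudogenes of FTH1 and FTL, for each library (points) with the mean of its group (bar). BEST1 follows FTH1 in all 4 groups, and the 22.7 CPM of the FTH1 copies in 1 anti-M8nAb 12 h library stands apart from the other 7 libraries, which lie between 8.48 and 11.7 CPM.

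NCOA4, the receptor for the lysosomal breakdown of ferritin, was higher with anti-M8nAb at both times. At 12 h it had 152 and 155 CPM with anti-M8nAb, against 129 and 132 CPM with IgG. At 24 h it had 146 and 158 CPM with anti-M8nAb, against 134 and 120 CPM with IgG. The groups did not overlap, though the 24 h libraries were more spread. NCOA4 was higher by 0.24 ± 0.06 on the log2 scale at 12 h (adjusted p = 0.00192, edgeR) and by 0.26 ± 0.06 at 24 h (adjusted p = 0.000522, edgeR), and the difference of the responses was 0.02, with a 95% interval of −0.15 to 0.19.

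TFRC, the transferrin receptor, gave the largest difference among the 9 genes, and it was seen at 24 h. At 12 h it had 278 and 277 CPM with anti-M8nAb, against 270 and 271 CPM with IgG, and the log2 fold change was 0.04 ± 0.05 (adjusted p = 0.639, edgeR). The 12 h groups did not overlap, though TFRC was not called. At 24 h it had 286 and 314 CPM with anti-M8nAb, against 204 and 196 CPM with IgG. At 24 h TFRC was 49.9% higher, a log2 fold change of 0.58 ± 0.05 (adjusted p = 1.45e-12, edgeR), and the groups were far apart. The response was larger at 24 h than at 12 h by 0.55 on the log2 scale, with a 95% interval of 0.40 to 0.70 (adjusted p = 6.09e-07, edgeR). That difference passed the threshold in all 19 alternatives that could give it, at 0.48 to 0.61.

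The levels of the 4 groups show where the TFRC difference at 24 h lay. In IgG hESCs TFRC was lower at 24 h than at 12 h, with 204 and 196 CPM at 24 h against 270 and 271 CPM at 12 h (−0.43 ± 0.05 on the log2 scale; adjusted p = 1.07e-07, edgeR). In anti-M8nAb hESCs the 24 h libraries, at 286 and 314 CPM, lay above the 12 h libraries, at 278 and 277 CPM, a difference that was not tested. The comparison at 24 h thus set a level close to that of 12 h against a lower level in the controls. The ratio of TFRC to FTH1 counts was 0.323 and 0.331 with anti-M8nAb against 0.287 and 0.280 with IgG at 24 h. At 12 h it was 0.345 and 0.362 with anti-M8nAb against 0.388 and 0.393 with IgG. The ratio in anti-M8nAb hESCs thus lay above that of IgG hESCs at 24 h and below it at 12 h, with no overlap. For this ratio too, the part of BEST1 reads in the FTH1 counts was not tested.

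**Figure D3:**
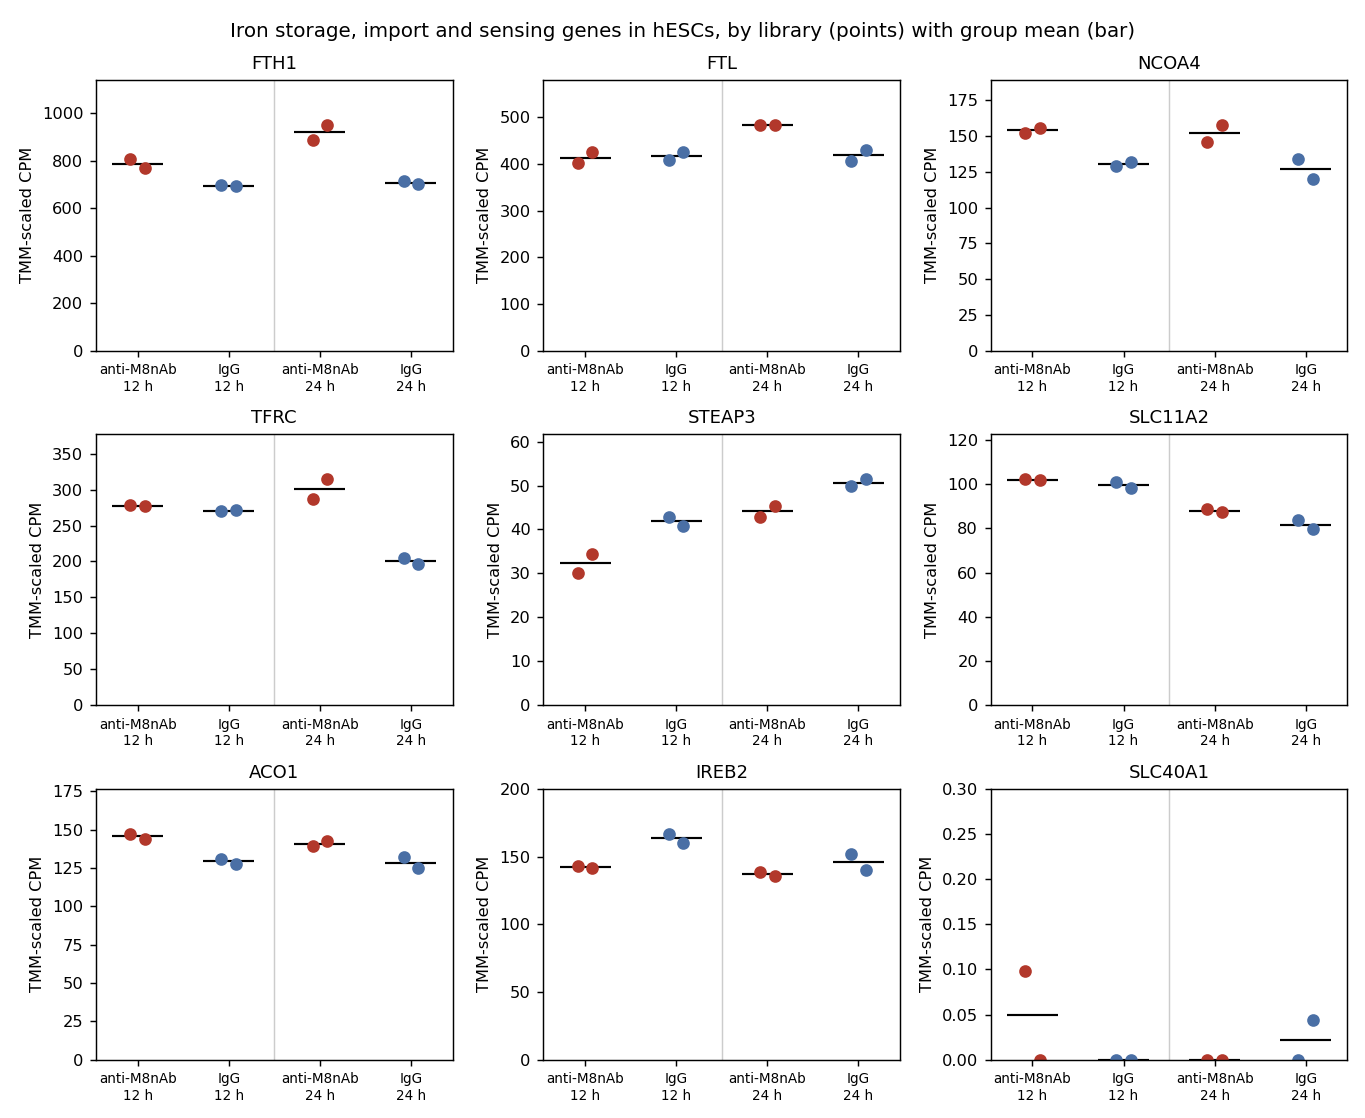
TMM-scaled CPM of the 9 genes in each library (points) with the mean of its group (bar), anti-M8nAb in red and IgG in blue, at 12 h and 24 h. Each axis starts at 0. The IgG 24 h libraries are the low ones for TFRC, at 204 and 196 CPM, the anti-M8nAb libraries are high for FTH1 at both times, and SLC40A1 is at or near 0 throughout.

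STEAP3, the endosomal ferrireductase that works with the transferrin receptor, was lower with anti-M8nAb at 12 h. At 12 h it had 30.1 and 34.5 CPM with anti-M8nAb, against 42.9 and 40.8 CPM with IgG, a log2 fold change of −0.37 ± 0.09 (adjusted p = 0.000791, edgeR). At 24 h it had 42.9 and 45.5 CPM with anti-M8nAb, against 49.9 and 51.4 CPM with IgG, and the log2 fold change of −0.20 ± 0.08 missed the threshold (adjusted p = 0.0531, edgeR). The groups did not overlap at either time. The response did not pass the test of a difference between the times, at 0.17 with a 95% interval of −0.07 to 0.42. The 12 h call was lost without anti-M8nAb 12 h replicate 1, at −0.27 (adjusted p = 0.0582, edgeR). STEAP3 (chr2:119223831-119265652, plus strand) shares 10.96% of its exon bases with the antisense gene STEAP3-AS1.

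SLC11A2, the endosomal iron transporter, had 102 and 102 CPM with anti-M8nAb against 101 and 98.1 CPM with IgG at 12 h, and at 24 h 88.7 and 87.4 CPM with anti-M8nAb against 83.7 and 79.8 CPM with IgG. The libraries of a time lay close together, and the 24 h libraries of both treatments lay below the 12 h libraries. The anti-M8nAb libraries lay above the IgG libraries at both times, without overlap. At 12 h the log2 fold change was 0.03, with a 95% interval of −0.09 to 0.16, and 0.11 at 24 h, with a 95% interval of −0.02 to 0.24, and neither passed (adjusted p = 0.725 and 0.178, edgeR). SLC11A2 was lower in IgG hESCs at 24 h than at 12 h, with −0.29 ± 0.06 on the log2 scale (adjusted p = 0.00149, edgeR), a call that was lost without IgG 12 h replicate 1, at −0.26 (adjusted p = 0.0537, edgeR).

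SLC40A1, the iron exporter, was at the floor of detection. It had 2 and 0 counts with anti-M8nAb and 0 and 0 counts with IgG at 12 h, and 0 and 0 counts with anti-M8nAb and 0 and 1 count with IgG at 24 h. Its highest FPKM in any library was 0.0225. A count of 0 allows a level of up to 3 counts in a library, or 0.132 to 0.147 CPM, counting error only. No fold change is given, since all groups were at or under that floor, and a difference in this exporter was not detectable at this depth.

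The sensors moved in opposite directions at 12 h. ACO1, which encodes IRP1, a protein that is cytosolic aconitase when it holds an iron-sulfur cluster, had 147 and 144 CPM with anti-M8nAb against 131 and 128 CPM with IgG at 12 h, which gave a log2 fold change of 0.17 ± 0.06 (adjusted p = 0.0199, edgeR). At 24 h it had 139 and 143 CPM with anti-M8nAb against 132 and 125 CPM with IgG, and the log2 fold change of 0.13 ± 0.06 missed the threshold (adjusted p = 0.059, edgeR). Its groups did not overlap at either time, and the responses differed by −0.04 with a 95% interval of −0.20 to 0.13. The 12 h call was lost with any 1 of the 4 libraries of that time left out, IgG 12 h replicate 1 or 2 or anti-M8nAb 12 h replicate 1 or 2, with values of 0.16 to 0.19 (adjusted p = 0.0508 to 0.132, edgeR).

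IREB2, which encodes IRP2, a protein degraded when iron is plentiful, had 143 and 141 CPM with anti-M8nAb against 167 and 160 CPM with IgG at 12 h, which gave a log2 fold change of −0.20 ± 0.06 (adjusted p = 0.00583, edgeR). At 24 h it had 139 and 135 CPM with anti-M8nAb against 152 and 140 CPM with IgG, a log2 fold change of −0.09 with a 95% interval of −0.21 to 0.03 (adjusted p = 0.223, edgeR). The anti-M8nAb libraries were the lower ones at both times, by little at 24 h. The 12 h call was lost without IgG 12 h replicate 1, at −0.17 (adjusted p = 0.12, edgeR), and without anti-M8nAb 12 h replicate 2, at −0.19 (adjusted p = 0.0524, edgeR).

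**Figure D4:**
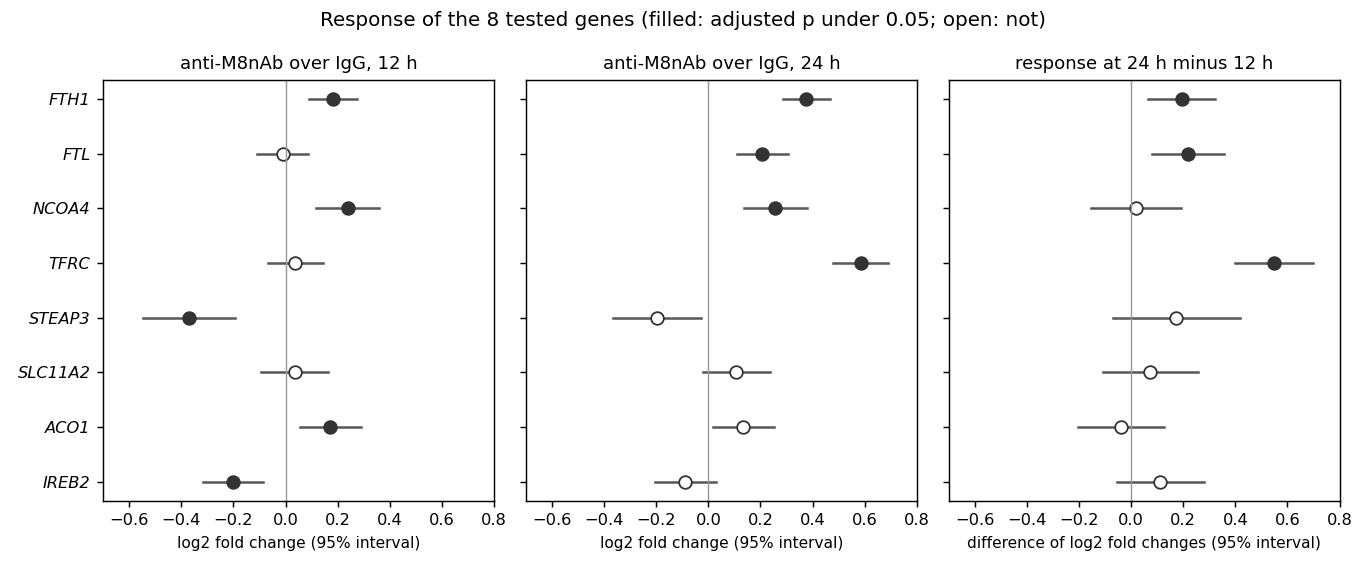
Log2 fold change of anti-M8nAb over IgG at 12 h and at 24 h, and the response at 24 h minus that at 12 h, for the 8 genes that passed the filter, with 95% intervals and filled points for an adjusted p under 0.05. At 24 h FTH1, FTL, NCOA4 and TFRC lie above 0, and the difference between the times is largest for TFRC, at 0.55.

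Of the 8 genes tested, 3 were called higher (FTH1, NCOA4 and ACO1) and 2 lower (STEAP3 and IREB2) at 12 h, where 15.8% of all genes tested were called higher and 16.4% lower. At 24 h 4 were called higher (FTH1, FTL, NCOA4 and TFRC) and none lower, where 21.2% of all genes were higher and 21.3% lower. With 8 genes, these counts are a description. Without anti-M8nAb 12 h replicate 2, the library with the high pseudogene share, the 12 h log2 fold changes were 0.22 for FTH1 and 0.23 for NCOA4 (adjusted p = 0.00043 and 0.0171, edgeR), −0.47 for STEAP3 (adjusted p = 0.000578, edgeR), and, past the threshold no longer, 0.19 for ACO1 and −0.19 for IREB2 (adjusted p = 0.0508 and 0.0524, edgeR). At 24 h DESeq2 also called none lower, and at an unadjusted p under 0.05 edgeR gave 1, STEAP3. In the difference of the responses 3 were called higher, FTH1, FTL and TFRC, where 5.79% of all genes were higher and 6.54% lower. None changed 2-fold, which 6.37% of all genes did at 12 h and 9.6% at 24 h. The 8 had median log2 fold changes of 0.04 (12 h) and 0.17 (24 h), against 0.00 over all genes at either time. The responses at 24 h and 12 h use different IgG libraries, but the difference of the responses and each of them share libraries.

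Over time in IgG hESCs alone, 1 of the 8 genes was called higher at 24 h than at 12 h (STEAP3, by 0.28 on the log2 scale) and 2 were lower (TFRC and SLC11A2), where 7.01% of all genes were higher and 6.64% lower. The STEAP3 call was lost without IgG 12 h replicate 1, IgG 12 h replicate 2 or IgG 24 h replicate 2, at 0.25 to 0.32 (adjusted p = 0.0773 to 0.204, edgeR). FTH1 and FTL did not pass the test in the controls, with log2 fold changes of 0.03 and 0.01 and 95% intervals of −0.06 to 0.12 and −0.09 to 0.10. IREB2, at −0.16, was just outside the threshold (adjusted p = 0.0505, edgeR).

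Some calls changed on the deposited FPKM values, where the scaling, the transform, the filter and the test all differ from those of the counts. Which of these moved them was not tested. DESeq2's size factors in edgeR, which change the scaling alone, gave the same counts of calls among the 8 genes at 12 h and 24 h but for STEAP3, called lower at 24 h as well (adjusted p = 0.0494, edgeR). With them the median over all genes stayed near that of TMM, so they do not stand in for the FPKM scaling. On log2(FPKM + 1) in limma, over 17076 genes, the 12 h calls were 1550 genes higher and 2881 lower, against 3196 and 3300 in edgeR. The 24 h calls there were 2334 higher and 4319 lower, against 4270 and 4296 in edgeR. The median log2 fold change over all genes there was −0.04 at 12 h and −0.07 at 24 h, against 0.00 at both times in edgeR. Each of the 8 genes also had a lower log2 fold change there than in edgeR at both times. For FTH1 it was 0.12 against 0.18 at 12 h, and 0.29 against 0.38 at 24 h. On the FPKM scale FTH1, NCOA4 and ACO1 missed the threshold at 12 h (adjusted p = 0.0706, 0.0809 and 0.136, limma), and FTL and NCOA4 missed it at 24 h (adjusted p = 0.0849 and 0.0707, limma). FTH1 and TFRC remained higher at 24 h. IREB2 and STEAP3 were called lower at 24 h, at −0.16 and −0.26 (adjusted p = 0.0485 and 0.0296, limma), against −0.09 and −0.20 in edgeR. No call of the 8 genes turned round in direction in any alternative run.

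The other genes of iron handling were taken as 7 lists with 78 genes, of which 70 passed the filter. The 12 h calls were 15 genes higher (21.4% of those tested) and 15 lower (21.4%), and the 24 h calls 21 higher (30.0%) and 12 lower (17.1%), beside the shares of all genes given above. Their median log2 fold changes were −0.02 (12 h) and −0.01 (24 h), against 0.00 over all genes at either time. Leaving out IgG 12 h replicate 2 left 7 higher and 9 lower at 12 h, and leaving out anti-M8nAb 12 h replicate 1 left 9 higher. The 8 genes that did not pass included TF, HAMP and FTMT, which encode transferrin, the hormone hepcidin and mitochondrial ferritin, and these had at most 11, 1 and 0 counts in any library.

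**Figure D5:**
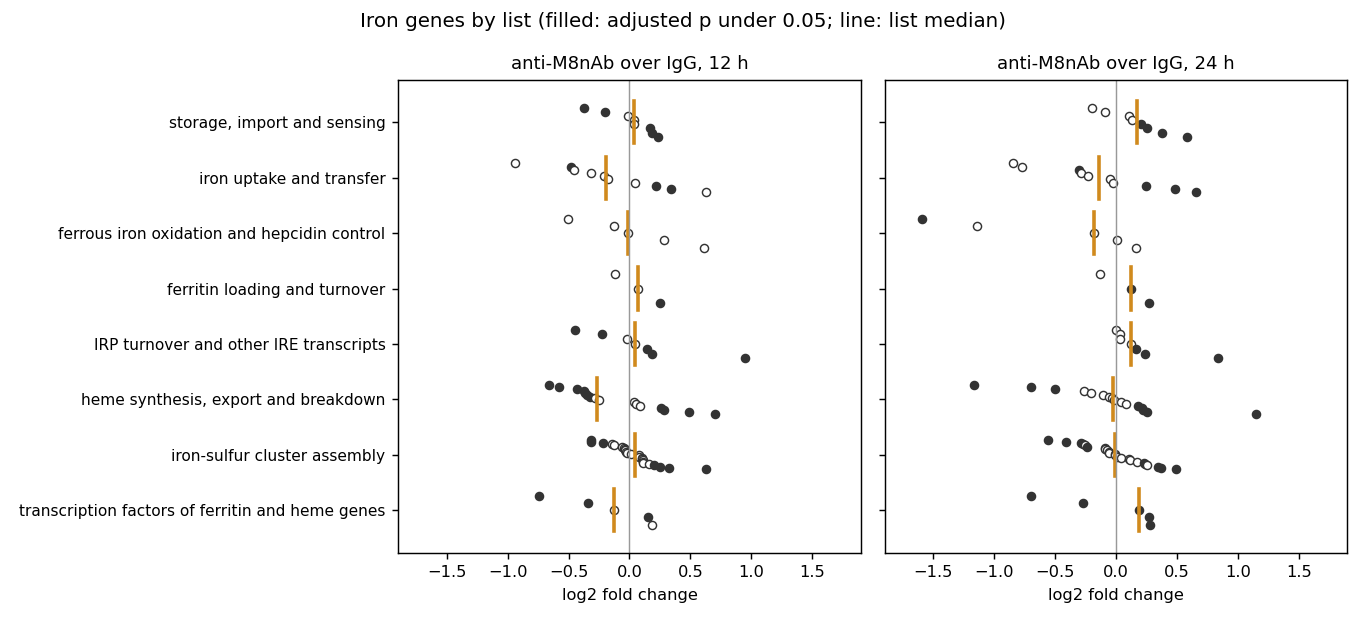
Log2 fold change of anti-M8nAb over IgG at 12 h and 24 h for every gene tested, by list (filled points, adjusted p under 0.05; orange line, median of the list). The storage, import and sensing genes have medians of 0.04 at 12 h and 0.17 at 24 h, and the most displaced called points are HMOX1, at 1.15, FECH, at −1.17, and HFE, at −1.59, all at 24 h.

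Among genes of iron uptake and transfer, the 12 h calls were 2 higher and 1 lower of 10, and the 24 h calls 3 higher and 1 lower. The metal importers of the ZIP family moved apart. SLC39A14 (ZIP14) had 202 and 202 CPM with anti-M8nAb against 275 and 288 CPM with IgG at 12 h (−0.48 ± 0.05 on the log2 scale; adjusted p = 5.72e-10, edgeR) and a log2 fold change of −0.30 at 24 h, while SLC39A8 (ZIP8) had 66.2 and 64.7 CPM with anti-M8nAb against 45.5 and 37.8 CPM with IgG at 24 h (0.65 ± 0.08 on the log2 scale; adjusted p = 1.7e-08, edgeR) and 0.34 at 12 h. The 12 h call of SLC39A8 was lost without IgG 12 h replicate 2, at 0.28 (adjusted p = 0.0717, edgeR). The ferrireductase STEAP2 was higher at 24 h, by 0.48 (adjusted p = 0.00048, edgeR). SLC25A37, a mitochondrial iron importer, was higher by 0.22 at 12 h and 0.25 at 24 h, calls that were lost with any 1 of the 4 libraries of 12 h left out (0.16 to 0.29; adjusted p = 0.056 to 0.322, edgeR) and without IgG 24 h replicate 2 or anti-M8nAb 24 h replicate 2 at 24 h (0.19 to 0.22).

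Of the genes of ferrous iron oxidation and hepcidin control, 1 of 5 was called, at 24 h. HFE, whose protein binds the transferrin receptor, had 0.487 and 0.487 CPM with anti-M8nAb against 1.47 and 1.498 CPM with IgG at 24 h, which gave a log2 fold change of −1.59 ± 0.46 on few counts (adjusted p = 0.0042, edgeR). Of the 3 genes of ferritin loading and turnover that were tested, 1 was higher at 12 h and 2 at 24 h. PCBP2, a chaperone that hands iron to ferritin, had 647 and 680 CPM with anti-M8nAb against 582 and 530 CPM with IgG at 12 h (0.25 ± 0.05 on the log2 scale; adjusted p = 5.6e-05, edgeR) and a log2 fold change of 0.27 at 24 h. PCBP1, a chaperone of the same kind, was higher by 0.12 at 24 h (adjusted p = 0.0316, edgeR), a call lost without IgG 12 h replicate 1 or 2, IgG 24 h replicate 1 or either anti-M8nAb 24 h library, at 0.09 to 0.14. The exons of PCBP1 and PCBP2 overlap genes on the other strand over 73.2 and 18.8% of their bases.

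Among the genes of IRP turnover and other messengers with iron-responsive elements, the 12 h calls were 3 higher and 2 lower of 7, and the 24 h calls 3, all higher. FBXL5, the iron-binding adaptor of the ubiquitin ligase that degrades IRP2, had 49.4 and 48.1 CPM with anti-M8nAb against 66.9 and 66.0 CPM with IgG at 12 h (−0.45 ± 0.08 on the log2 scale; adjusted p = 7.11e-06, edgeR). At 24 h its log2 fold change was 0.03, and the responses differed by 0.48 (adjusted p = 0.00135, edgeR). FBXL5 and IREB2 were thus both lower at 12 h. Of its partners in the ligase, RBX1 was higher by 0.19 at 12 h and 0.24 at 24 h, and CUL1 by 0.14 and 0.17, while SKP1 was not called at either time, at −0.02 and 0.13 (adjusted p = 0.887 and 0.284, edgeR). RBX1 lost its calls without IgG 12 h replicate 2 or anti-M8nAb 12 h replicate 2 (0.15 to 0.16) and without IgG 24 h replicate 1 (0.15), and CUL1 with any 1 library of 12 h left out (0.11 to 0.18) and without IgG 24 h replicate 2 or anti-M8nAb 24 h replicate 1 (0.13 to 0.16). EPAS1, the hypoxia-inducible factor HIF-2α, had 9.13 and 8.15 CPM with anti-M8nAb against 5.07 and 3.86 CPM with IgG at 12 h, and at 24 h 18.3 and 15.8 CPM with anti-M8nAb against 9.33 and 9.78 CPM with IgG, log2 fold changes of 0.95 ± 0.17 and 0.84 ± 0.15 (adjusted p = 1.82e-05 and 6.63e-06, edgeR).

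In the list of heme synthesis, export and breakdown, the 12 h calls were 4 higher and 7 lower of 16, and the 24 h calls 5 higher and 3 lower. At 24 h 2 of the 16, HMOX1 and FECH, passed 2-fold. HMOX1, the heme oxygenase that frees iron from heme, had 64.7 and 72.4 CPM with anti-M8nAb against 40.6 and 43.6 CPM with IgG at 12 h, and at 24 h 94.9 and 92.5 CPM with anti-M8nAb against 41.3 and 43.1 CPM with IgG. HMOX1 was higher by 0.70 ± 0.08 on the log2 scale at 12 h and by 1.15 ± 0.08 at 24 h (adjusted p = 4.23e-10 and 3.78e-17, edgeR), larger at 24 h by 0.45 (adjusted p = 0.00299, edgeR). FECH, which places iron into heme, had 20.9 and 19.97 CPM with anti-M8nAb against 29.4 and 31.8 CPM with IgG at 12 h, and at 24 h 14.02 and 13.8 CPM with anti-M8nAb against 31.3 and 31.2 CPM with IgG. FECH was lower, at −0.58 ± 0.10 on the log2 scale at 12 h and −1.17 ± 0.11 at 24 h (adjusted p = 1.19e-05 and 1.41e-12, edgeR), with a difference of −0.58 (adjusted p = 0.00491, edgeR).

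Of the other heme genes, ALAD, an early enzyme of synthesis, was lower, with −0.70 at 24 h (adjusted p = 3e-05, edgeR) and by −0.38 at 12 h, where the call was lost without IgG 12 h replicate 1 or 2 or anti-M8nAb 12 h replicate 1 (−0.42 to −0.29). FLVCR1, described as a heme exporter, was higher by 0.49 at 12 h (adjusted p = 1.53e-09, edgeR) and by 0.21 at 24 h, and the 24 h call was lost without IgG 24 h replicate 2, at 0.14 (adjusted p = 0.07, edgeR). The FLVCR1 response was smaller at 24 h than at 12 h, with a difference of −0.27 (adjusted p = 0.0152, edgeR).

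Of the 24 genes of iron-sulfur cluster assembly, the 12 h calls were 4 higher (16.7%) and 3 lower, and the 24 h calls 5 higher and 5 lower (20.8% each), shares near those of all genes tested. CIAPIN1, an electron carrier of cytosolic assembly, was lower, with −0.32 at 12 h and −0.27 at 24 h (adjusted p = 7.86e-05 and 0.000424, edgeR). IBA57, a mitochondrial assembly factor, had 15.7 and 18.7 CPM with anti-M8nAb against 10.97 and 11.3 CPM with IgG at 12 h (0.63 ± 0.13 on the log2 scale; adjusted p = 0.000211, edgeR), and overlapped between groups at 24 h, with a difference of the responses of −0.72 (adjusted p = 0.00691, edgeR). At 24 h ISCA1 was lower, with −0.41 and NFU1 higher by 0.50 (adjusted p = 3.43e-05 and 3.66e-05, edgeR), both of them factors of late mitochondrial assembly. LYRM4, a partner of the sulfur donor, was higher by 0.25 at 12 h and lost that call without IgG 12 h replicate 2 or anti-M8nAb 12 h replicate 1 (0.21 to 0.23).

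All 5 transcription factors and partners that act on ferritin and heme genes were called at 24 h, 3 of them higher and 2 lower. At 12 h the calls were 1 higher and 2 lower. Over all genes tested, 21.2% were called higher and 21.3% lower at 24 h, and 15.8% and 16.4% at 12 h. With 5 genes, these counts are a description. NFE2L2 (NRF2), which activates FTH1, FTL and HMOX1, had 492 and 505 CPM with anti-M8nAb against 428 and 393 CPM with IgG at 24 h (0.28 ± 0.05 on the log2 scale; adjusted p = 9.01e-06, edgeR). Its log2 fold change of 0.15 at 12 h was lost without IgG 12 h replicate 2 or anti-M8nAb 12 h replicate 1 (0.11 to 0.13), and 24.8% of its exon bases overlap genes on the other strand. KEAP1, which sends NRF2 to degradation, was lower, with −0.34 at 12 h and −0.27 at 24 h (adjusted p = 0.000308 and 0.00356, edgeR), the 24 h call being lost without IgG 24 h replicate 2 or anti-M8nAb 24 h replicate 2 (−0.21 to −0.20). BACH1, a repressor of the same genes that is released by heme, was higher by 0.27 at 24 h (adjusted p = 0.00344, edgeR), and lost this without IgG 24 h replicate 2, at 0.19. MAFK, a small partner of both factors, was lower, with −0.74 at 12 h and −0.70 at 24 h (adjusted p = 3.68e-06 and 5.76e-06, edgeR), and shares 18.1% of its exon bases with TMEM184A.

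Genes whose pattern over the 8 libraries was most like that of FTH1 or TFRC were ranked by the root mean square difference of centred log2 CPM, over 10686 genes with a mean of at least 10 CPM. For FTH1 the 5 nearest were LITAF, SMIM20, KIF3C, RBPMS and MYL12A, at 0.03 to 0.04, where the standard deviation of FTH1 itself was 0.17. For TFRC they were ZFR, WNK3, NPHP4, FBXL7 and PGM2, at 0.06 to 0.07, where the standard deviation of TFRC was 0.24. Neither list held another of the 9 genes, and likeness over 8 libraries in 4 groups is a description.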

How the data were processed

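Total RNA of BG01 hESCs was sequenced in 4 groups of 2 libraries, given by antibody (anti-M8nAb or IgG) and time (12 or 24 h). For the deposited counts, which are not normalised, the authors used Trimmomatic for trimming, STAR in 2 passes on GRCh38.p14 for alignment, Picard to mark duplicates, and HTSeq to assign reads to Ensembl genes. The submitters' processing notes also name FastQC 0.11.9 and GATK. FPKM values were computed by the authors with RNAnorm, from total counts and the length of all annotated exons. Each table holds 4 columns of no listed sample, which were not used. Lines without a gene name were left out: the last 5 hold 53.2 to 54.1% of all counts, and the other 1000 hold 0.192 to 0.21%.

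Symbols came from GENCODE release 44 and all 62086 identifiers matched. Counts were scaled by TMM, filtered by expression (20165 genes kept) and tested with 1 coefficient for each group (edgeR 4.0.16, R 4.3.3). The common biological coefficient of variation was 5.53%. Replicates differed by 2.23 to 4.21 times counting noise alone (chi-square per gene, at least 20 counts), more than repeated sequencing of the same library would give. This does not show that they came from separate cultures or RNA preparations. Standard errors of fold changes come from the F statistic, and scripts were tested on simulated data.

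The genes and lists were chosen with earlier results of these data known. All 9 genes are named, and from each other list and time up to 3 genes with the smallest adjusted p under 0.05, of which 1 is not reported here. BEST1 and the pseudogenes that were called are named after their values were seen. Alternatives were DESeq2 1.42.0, its size factors, other filters, each time alone, the replicate number as a block, limma 3.58.1 on log2 FPKM (pseudocounts 1 and 0.1, mean of at least 0.5 FPKM or all genes), protein-coding genes only, ferritin summed with its pseudogenes, each library left out, and, chosen after seeing the data, FTH1 summed with BEST1 and the canonical transcript length. The 95% intervals come from the fit, and floors cover counting error only.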

Additional observations from a re-analysis of the deposited data

Results flagged for a closer look

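The response of TFRC to anti-M8nAb differed between the times, by its own test: TFRC was higher by 0.58 on the log2 scale at 24 h and by 0.04, not past the threshold, at 12 h, a difference of 0.55 (adjusted p = 6.09e-07, edgeR). The IgG libraries moved between the times as well, by −0.43 on the log2 scale.

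For FTH1 the 24 h log2 fold change was 0.38 and the 12 h one 0.18, a difference of 0.19 (adjusted p = 0.0369, edgeR). For FTL the 24 h value was 0.21 and the 12 h value −0.01, a difference of 0.22 (adjusted p = 0.0282, edgeR). Both calls were lost in 10 of 19 alternatives. With 2 libraries in each group no library could be tested as an outlier.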

How the results depend on the processing

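None of the 624 values of the 8 tested genes or the 996 of the other named genes, each an alternative to a reported value, reversed a call. Of the first, 532 had the same outcome as the reported value, called or not called, 55 lost a call, 13 gained one and 24 changed sign without one. Of the second these were 865, 111, 4 and 16. The 532 and 865 include values that were called in neither fit, so the losses are not shares of the calls. TFRC was higher at 24 h in all 20 alternatives, at 0.46 to 0.65, and FTH1 also in 20, at 0.29 to 0.43. The counts of calls moved in the FPKM fits, which change scaling, transform, filter and test together, and with single libraries, and the cause was not tested. With DESeq2's size factors, a change of scaling alone, 12 h had 14 other iron genes higher and 15 lower, while 24 h had 21 higher and 12 lower.

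Among the 8 genes, the FPKM fits (pseudocount 1, pseudocount 0.1, and all genes) gave 0 higher at 12 h, against 3, and 2 higher at 24 h, against 4. Lower at 24 h, against 0, were 2 genes with either pseudocount and 1 with DESeq2's size factors (STEAP3, adjusted p = 0.0494, edgeR). Without the filter and in the FPKM fits, 1 gene, against 3, was higher in the difference of the responses and 0, against 1, over time in IgG, where lower genes, against 2, were 1, 1 and 0 in the 3 FPKM fits. With each library left out in turn, 2 to 3 genes were higher and 1 to 2 lower at 12 h, 4 to 5 higher at 24 h, 1 to 2 higher in the difference, and 0 to 1 higher and 1 to 3 lower over time in IgG.

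Among the other 70 iron genes, the 3 FPKM fits gave 6, 7 and 2 higher at 12 h, against 15, and 7, 7 and 5 at 24 h, against 21. Lower at 12 h, against 15, were 9 without the filter and 9 in FPKM with all genes. In the difference the FPKM fits gave 0, against 5 higher and 3 lower, the fit without the filter 2 higher and 1 lower, and DESeq2 2 higher. Over time in IgG, higher genes, against 5, were 3 in DESeq2, 2 without the filter, and 2, 2 and 0 in FPKM, and lower genes, against 4, were 1 without the filter, 1, 1 and 0 in FPKM, and 7 among protein-coding genes only. Leaving out each library gave 7 to 16 higher and 9 to 15 lower at 12 h, 15 to 20 higher and 8 to 13 lower at 24 h, 1 to 5 higher and 2 to 4 lower in the difference, and 1 to 5 higher and 1 to 5 lower over time in IgG. Fitting each time alone gives no difference between times.

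The replicate numbers are shared by the groups, but deviations of same-numbered libraries correlated at −0.122 to 0.071 over 6 pairs of groups. No shared replicate effect was thus seen, which cannot show whether same-numbered libraries were handled together. The labels do not say so either way. With the replicate block, members called were 3 higher and 2 lower at 12 h, 4 higher at 24 h, 3 higher in the difference, and 1 higher and 3 lower over time in IgG, with IREB2 added. Of the other iron genes it called 13 higher and 15 lower at 12 h, and for 24 h the counts were 21 and 11. With 2 libraries a group, 1 library decides several calls of small fold changes, and SLC40A1 was limited by depth.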
